A study of Mus musculus with 12 samples.

Results

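The genes described here encode Cyp4a and Cyp4f fatty acid hydroxylases and the related Cyp4v3, measured in mouse liver. Of the 10 genes listed, 8 had 1 array feature of their own symbol, among 30745 genes with such a feature in the whole series. The feature of highest mean signal stood for each gene. Cyp4a10 was found only on a feature shared with Cyp4a31, and Cyp4v3 only on a feature shared with Klkb1, the gene for plasma prekallikrein. Those shared features are given under both symbols and are not counted for either gene.

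Cyp4 enzymes are haem-containing monooxygenases of the endoplasmic reticulum that put a hydroxyl group on the end carbon of a fatty acid, the step called omega-hydroxylation. Alcohol and aldehyde dehydrogenases then turn the product into a dicarboxylic acid, which peroxisomes shorten. Cyp4a10 and Cyp4a14 are classic targets of the fatty acid receptor PPAR alpha in rodent liver, Cyp4a12a is a male-biased arachidonic acid hydroxylase, and Cyp4f enzymes act on leukotrienes and on the side chains of vitamins E and K.

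Livers of 12 mice were each hybridised to an Affymetrix transcriptome array. KO mice carried the genotype ENT3 -/- and WT mice the genotype ENT3 +/+, all of strain C57BL6/J and 12 weeks old. ENT3 is the product of Slc29a3, a nucleoside transporter of lysosomes. The 4 groups of 3 mice were KO females, KO males, WT females and WT males, by genotype and by the letter in each title, and mice are named by the number in the title. The sources used here do not give how the allele was made, the litters or any array batch, and p-values measure the spread between these mice.

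Slc29a3 had 4.10 to 4.19 on the deposited log2 scale in KO livers, against 4.82 to 5.29 in WT livers, a difference of -0.94 ± 0.07 (SE, n = 6 each; limma adjusted p = 0.000324). All 12 values lay below the 95th percentile of the negative control features of the same array, which ran from 6.20 to 6.83 and is called the negative control mark below. Xist and the Y-linked Eif2s3y separated the titled sexes on all 12 arrays. A ceiling at 19.93 was reached by 172 features on all arrays, 6 of 8 measured hepatocyte markers among them, so the hepatocyte share could not be read. The poly-A labelling spikes averaged 5.44 ± 0.36 in KO livers and 6.30 ± 0.32 in WT livers (SD, n = 6 each). Of 12 markers of Kupffer cells and macrophages 10 were higher in KO and 1 lower, and their log2 summed signal was 13.89 to 18.38 in KO livers against 11.56 to 13.17 in WT livers. Of 13 neutrophil markers 9 were higher in KO, 7 of the 13 within the negative control range on every array, with summed signals of 9.82 to 16.95 in KO livers and 7.93 to 8.79 in WT livers. Of the other lists, 3 of 6 B and plasma cell markers, 3 of 8 endothelial, 1 of 5 biliary and 1 of 4 kidney markers were higher and 2 endothelial markers lower, and none of the hepatocyte, erythroid, T and NK cell, stellate, adipocyte or pancreas markers was called. Within the negative control range on every array lay 5 of the B and plasma cell markers, 1 endothelial, 3 biliary and all 4 kidney markers, called ones among them. The pancreas genes Cpa1 and Prss2 stood apart in WT female 25 (9.85 and 11.37) and WT female 27 (8.12 and 8.56), against 3.61 to 4.02 on the other 10 arrays, so results are also given without those mice. The lone WT female left is then assumed to vary like the other groups. The part of these measures in the differences below was not tested, apart from a fit with the spikes as a covariate. In whole liver, fewer cells of a type and less RNA per cell cannot be told apart.

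The promoter sequences of 3 genes lower in KO over both sexes are shown because these genes carry the genotype result and have an entry in the RefSeq table of the GRCm38.p6 build. Of the 10 genes 5 matched that table, Cyp4a32, Cyp4f13, Cyp4f14, Cyp4f15 and Cyp4v3, with 8 windows in all. Several of the 8 are overlapping windows of Cyp4f14. Each window of 300 bases is printed 5′ to 3′ on the strand of its gene. The windows are chr4:115600688-115600987 on the plus strand for Cyp4a32, chr17:32947312-32947611 on the minus strand for Cyp4f13 and chr17:32685409-32685708 on the plus strand for Cyp4f15. Capitals mark a match to the STAT5 motif TTCNNNGAA.
Cyp4a32: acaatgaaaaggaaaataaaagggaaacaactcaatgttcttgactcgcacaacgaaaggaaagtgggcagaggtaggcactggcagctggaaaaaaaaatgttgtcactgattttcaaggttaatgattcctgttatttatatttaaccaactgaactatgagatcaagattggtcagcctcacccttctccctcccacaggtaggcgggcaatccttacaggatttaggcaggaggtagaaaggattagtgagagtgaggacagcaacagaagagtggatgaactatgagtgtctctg
Cyp4f13: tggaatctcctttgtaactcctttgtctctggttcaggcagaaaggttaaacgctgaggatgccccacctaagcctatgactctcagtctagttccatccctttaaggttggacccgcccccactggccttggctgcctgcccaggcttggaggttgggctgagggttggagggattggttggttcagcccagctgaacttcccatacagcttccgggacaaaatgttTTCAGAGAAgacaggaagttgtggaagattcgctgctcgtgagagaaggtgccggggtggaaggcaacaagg
Cyp4f15: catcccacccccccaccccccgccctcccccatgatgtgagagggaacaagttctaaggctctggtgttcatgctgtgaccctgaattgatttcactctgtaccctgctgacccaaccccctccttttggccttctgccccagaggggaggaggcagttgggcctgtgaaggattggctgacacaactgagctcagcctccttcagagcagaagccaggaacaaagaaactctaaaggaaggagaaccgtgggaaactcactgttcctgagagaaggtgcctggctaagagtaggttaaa

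The motifs were searched on both strands of the 8 windows. The STAT5 motif, bound by the growth hormone effector, occurred once, in the Cyp4f13 window at position -22 from the start site. It occurred in 8.30% of 32851 windows of all genes. The PPAR response element DR1, searched as AGGNCA repeated head to tail with 1 base between, occurred in none of the 8 windows and in 0.381% of all windows. The single element AGGTCA, which some DR1 matches also hold, occurred in none of the 8 and in 16.3% of all windows. A missing match says only that these letters are not in these windows. Cyp4a32 was the only Cyp4a gene with a window, so Cyp4a10, Cyp4a14, Cyp4a31, Cyp4a12a and Cyp4a12b were not searched.

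Several Cyp4a and Cyp4f genes had less signal in KO livers over both sexes. Cyp4a14 lay at the ceiling on all 12 arrays, so 7 genes could show a difference, Cyp4a12a and Cyp4a12b among them in males only, since their female signals lay near background. Of these 7, Cyp4a31, Cyp4a32, Cyp4f13 and Cyp4f15 fell in KO, and none rose. Over all 65956 features 4.47% were called lower in the same fit, and among the 4127 genes with a mean log2 signal above 8, 24.1% were. All 7 exceed that level, Cyp4a12a and Cyp4a12b through the males. The median difference was -1.23 over the 5 genes other than these and -0.08 over those 4127 genes. Without WT females 25 and 27 the same count of 4 genes was called. The calls come from limma with Benjamini-Hochberg adjustment over all features, at a threshold of 0.05.

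Cyp4a32, a member of the Cyp4a gene cluster, had log2 signals of 16.48, 17.52 and 16.66 in KO females and 18.45, 17.83 and 17.82 in KO males, against 18.66, 18.48 and 18.69 in WT females and 18.90, 18.59 and 18.81 in WT males. Every KO mouse lay below every WT mouse, which 3.62% of all genes also showed. The difference over both sexes was -1.23 ± 0.18 (SE, n = 6 each; limma adjusted p = 0.00299).

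Cyp4a31, its close relative in the same cluster, had 14.85, 16.49 and 15.14 in KO females and 17.02, 16.13 and 16.31 in KO males, against 17.19, 17.02 and 17.99 in WT females and 17.41, 17.24 and 17.55 in WT males. Of the 6 KO mice 5 lay below all WT mice, and KO male 18 had the value of the lowest WT female. The difference was -1.41 ± 0.29 (SE, n = 6 each; limma adjusted p = 0.0144), and without both KO male 19 and WT female 38 it was -1.17 with an adjusted p of 0.0653.

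Within groups these relatives moved together. After the group means were removed, Cyp4a31 and Cyp4a32 correlated at r = 0.91 over the 12 arrays, given as a description. KO female 40 was the highest KO female and KO male 18 the highest KO male for both. Such close copies may share probe sequence, so their signals are not independent measurements.

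The feature shared by Cyp4a10 and Cyp4a31 read 19.13, 19.93 and 19.13 in KO females and 19.93 on the other 9 arrays. It was at the ceiling on 10 arrays, so KO females 13 and 69 were the only mice with a value below the ceiling. No difference is given for it, since all WT mice lay at the ceiling.

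Cyp4f15, a gene of the Cyp4f cluster, had 11.09, 10.46 and 10.75 in KO females and 10.82, 11.93 and 11.87 in KO males, against 12.42, 11.59 and 12.95 in WT females and 12.58, 13.25 and 12.99 in WT males. The groups did not overlap within either sex. Over all genes, 13.7% had every KO female below every WT female and 11% every KO male below every WT male. The difference was -1.48 ± 0.27 (SE, n = 6 each; limma adjusted p = 0.00778).

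Cyp4f13, which lies in the same cluster as Cyp4f14 and Cyp4f15, had 8.96, 8.10 and 8.78 in KO females and 9.59, 10.49 and 9.51 in KO males, against 9.48, 9.69 and 10.41 in WT females and 10.40, 11.08 and 10.40 in WT males. The females did not overlap, as in the 13.7% of genes given above, and KO male 19 lay within the range of the WT males. The difference was -1.004 ± 0.25 (SE, n = 6 each; limma adjusted p = 0.0295). It was no longer called when any 1 of KO females 40 and 69, KO males 18 and 39, WT female 38 or WT male 23 was left out (adjusted p = 0.0505 to 0.0711), or without the sex term (adjusted p = 0.137).

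Cyp4f14, which hydroxylates leukotriene B and vitamin E in mice, had 10.27, 9.73 and 10.13 in KO females and 10.73, 12.43 and 10.77 in KO males, against 10.30, 10.75 and 11.58 in WT females and 11.35, 11.28 and 11.28 in WT males. KO male 19 was the highest mouse of all, and also the highest KO male for Cyp4f13 and Cyp4f15. The difference of -0.41 ± 0.31 was not called (SE, n = 6 each; limma adjusted p = 0.49). Without KO male 19 and WT female 38 it was -0.51 with an adjusted p of 0.0473.

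The feature shared by Cyp4v3, the mouse counterpart of the human retinal disease gene CYP4V2, and Klkb1 had 12.59, 12.51 and 12.47 in KO females and 13.85, 13.70 and 14.14 in KO males, against 14.11, 14.33 and 14.61 in WT females and 14.61, 15.22 and 15.58 in WT males. Its difference was -1.53 ± 0.16 (SE, n = 6 each; limma adjusted p = 0.000794). Which of the 2 genes gave it cannot be told apart.

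**Figure D1:**
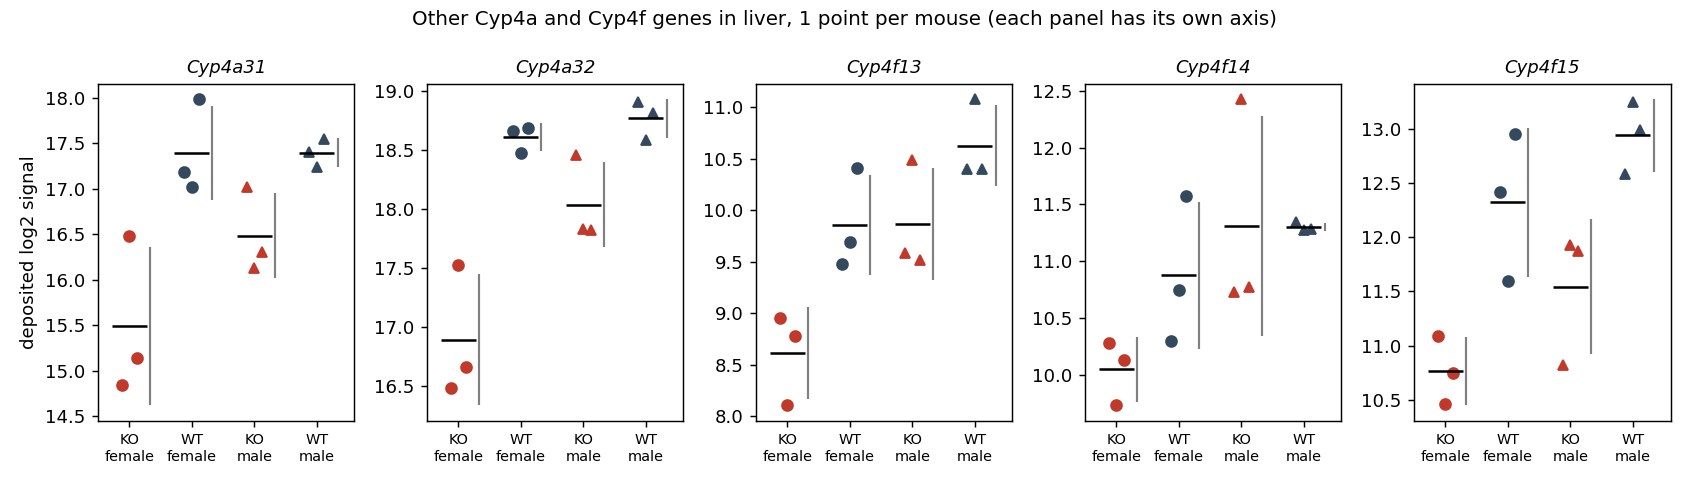
Deposited log2 signal (vertical axis, a separate range per panel) of Cyp4a31, Cyp4a32, Cyp4f13, Cyp4f14 and Cyp4f15 in KO females, WT females, KO males and WT males. Points are mice, black lines group means and grey lines ± 1 SD (n = 3 each); for Cyp4a32 all 6 KO points lie below all WT points.

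With the poly-A spikes as a covariate, which differ between the genotypes, 0 of the 7 genes and 3 of 65956 features were called over both sexes. The differences were then -1.26 ± 0.47 for Cyp4a32, -1.37 ± 0.77 for Cyp4a31, -1.01 ± 0.68 for Cyp4f15 and 0.22 ± 0.46 for Cyp4f13 (SE), so Cyp4f13 changed sign. In females 0 of the 5 genes other than Cyp4a12a and Cyp4a12b were called with the same covariate, at differences of -1.87 ± 0.81 for Cyp4a31 and -1.75 ± 0.50 for Cyp4a32.

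The genotype comparison was then made within each sex. In females Cyp4a31 (-1.91 ± 0.42, limma adjusted p = 0.0268), Cyp4a32 (-1.72 ± 0.26, adjusted p = 0.00565) and Cyp4f15 (-1.56 ± 0.38, adjusted p = 0.0405) fell in KO. They were 3 of the 5 genes that could show a difference in females, against 3.06% of all features and 18.9% of the genes above 8 called lower. Cyp4f13 differed by -1.24 ± 0.35 (adjusted p = 0.0657) and Cyp4f14 by -0.83 ± 0.44 (adjusted p = 0.327). The call for Cyp4a31 was lost without KO female 13, KO female 69 or WT female 38 (adjusted p = 0.0782 to 0.103). That for Cyp4f15 was lost without any 1 of 9 mice, all but KO males 18 and 19 and WT female 27 (adjusted p = 0.051 to 0.143) and with array weights (adjusted p = 0.0505). Cyp4f13 gained the call in 5 of 23 alternatives. Among these were the fits without KO male 19 (adjusted p = 0.0423), with low-signal features left out (adjusted p = 0.0265) and with single-symbol features only (adjusted p = 0.0492). Without WT females 25 and 27 none of the 3 was called, at differences of -2.50 for Cyp4a31 (adjusted p = 0.072), -1.80 for Cyp4a32 (adjusted p = 0.063) and -2.19 for Cyp4f15 (adjusted p = 0.0515).

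In males limma called 0 of the 7 genes, against 0.506% of all features and 3.27% of the genes above 8 called lower, while 4 of the 7 and 12.8% of all features had an unadjusted p under 0.05. Cyp4f15 differed by -1.40 ± 0.38 (adjusted p = 0.133) and Cyp4a32 by -0.73 ± 0.26 (adjusted p = 0.249). Cyp4a31 differed by -0.91 ± 0.42 (adjusted p = 0.399), Cyp4f13 by -0.76 ± 0.35 (adjusted p = 0.398) and Cyp4f14 by 0.01 ± 0.44 (adjusted p = 1). Cyp4a32 was called in males after quantile normalization (-1.33, adjusted p = 0.0341). Cyp4f15 was called with low-signal features left out (adjusted p = 0.0446). The feature shared by Cyp4v3 and Klkb1 was lower in KO in both sexes, by -1.83 ± 0.22 in females (limma adjusted p = 0.00261) and by -1.24 ± 0.22 in males (adjusted p = 0.0339).

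Cyp4a12a, the male-biased arachidonic acid hydroxylase, and its near-identical neighbour Cyp4a12b showed the widest genotype differences of the 7 genes, in males. Cyp4a12a had 8.42, 11.33 and 15.17 in KO males, against 15.62, 16.29 and 17.19 in WT males. Cyp4a12b had 8.49, 12.04 and 15.15 in KO males, against 16.41, 16.39 and 17.35 in WT males. All 3 KO males lay below all 3 WT males for both genes, as in 11% of all genes, KO male 18 lowest and KO male 39 close to the WT range.

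The differences in males were -4.73 ± 1.29 for Cyp4a12a (SE, n = 3 each; limma adjusted p = 0.133) and -4.82 ± 1.28 for Cyp4a12b (adjusted p = 0.125), and neither was called. Both were called when features near background were left out before the adjustment (adjusted p = 0.0447 for Cyp4a12a and 0.0415 for Cyp4a12b), and without KO male 39 (-6.49, adjusted p = 0.0194, and -6.45, adjusted p = 0.0273). They pass that filter through the males alone. The SEs come from a spread estimate shared by all groups, while the KO males spread far more widely than the WT males. KO male 18, lowest of the KO males here, was the highest of them for Cyp4a31 and Cyp4a32.

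In females both genes were near background. Cyp4a12a had 4.93, 5.35 and 4.68 in KO females, against 5.35, 5.31 and 6.06 in WT females. Cyp4a12b had 4.63, 5.38 and 4.59 in KO females, against 5.39, 5.13 and 6.65 in WT females. All lay at or below the negative control mark of their array except Cyp4a12b in WT female 38, so no genotype difference is given for females or over both sexes.

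**Figure D2:**
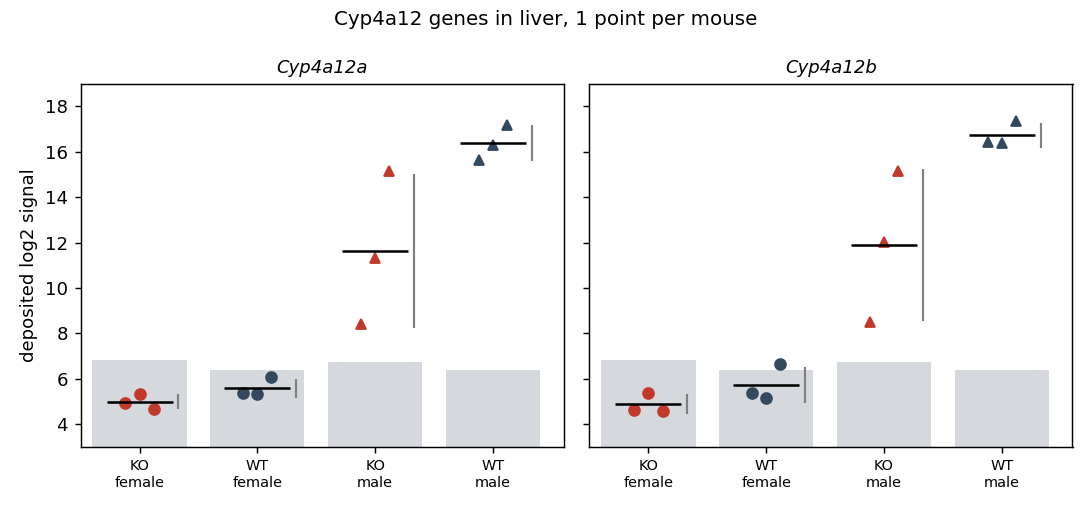
Deposited log2 signal (vertical axis) of Cyp4a12a and Cyp4a12b in KO females, WT females, KO males and WT males. Points are mice, black lines means, grey lines ± 1 SD (n = 3 each), and grey blocks reach up to the highest negative control mark of the group's arrays; KO males run from 8.42 to 15.17 for Cyp4a12a, below all WT males.

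The sex difference of both genes passed the test in each genotype. Cyp4a12a averaged 4.98 ± 0.34 in KO females and 11.64 ± 3.39 in KO males, and 5.58 ± 0.42 in WT females and 16.37 ± 0.79 in WT males (SD, n = 3 each). The fit shares its spread estimate among the 4 groups, although these SDs differ widely. Its SE may therefore understate the spread of the KO males and overstate that of the other groups, so the KO p-values are uncertain. Fitted female minus male was -6.66 ± 1.29 in KO (limma adjusted p = 0.0484) and -10.79 ± 1.29 in WT (adjusted p = 0.0144) for Cyp4a12a, and -7.03 ± 1.28 in KO (adjusted p = 0.0391) and -10.99 ± 1.28 in WT (adjusted p = 0.0135) for Cyp4a12b. These were the 2 of 7 genes called in each genotype, against 0.532% of all features called lower in KO and 0.0394% in WT. Set against the female negative control mark, the male mean was higher by at least 4.89 log2 units in KO and 10.08 in WT for Cyp4a12a, and by at least 5.14 in KO for Cyp4a12b. Without KO male 39 the KO limits were 3.12 for Cyp4a12a and 3.51 for Cyp4a12b.

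The KO calls were lost in most fits that left out 1 mouse. For Cyp4a12a this held for 10 of the 12 mice, all but KO males 18 and 39 (adjusted p = 0.063 to 0.134), and for Cyp4a12b for 11, all but KO male 18 (adjusted p = 0.0522 to 0.115). The WT calls of both were lost without WT female 25 or 27 or WT male 17 or 23 (adjusted p = 0.0541 to 0.095), and those of both genotypes without WT females 25 and 27 together. With low-signal features left out and dim values raised to a common floor, the KO differences were -4.81 for Cyp4a12a (adjusted p = 0.0718) and -5.06 for Cyp4a12b (adjusted p = 0.0556), and neither was called.

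The difference between the sexes in the genotype effect was tested directly. Limma called 0 of the 5 genes other than Cyp4a12a and Cyp4a12b and 1 of 65956 features (0.00152%). Among these 5 genes only Cyp4a32 had an unadjusted p under 0.05, against 6.67% of all features. Female minus male genotype effect was -0.99 ± 0.36 for Cyp4a32 (adjusted p = 0.655), -0.995 ± 0.59 for Cyp4a31 (adjusted p = 0.826) and -0.16 ± 0.54 for Cyp4f15 (adjusted p = 0.983). The genotype effects of these genes are not shown to differ between the sexes. For Cyp4a12a and Cyp4a12b the female term is a difference near background, so they are not counted and no value is given.

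**Figure D3:**
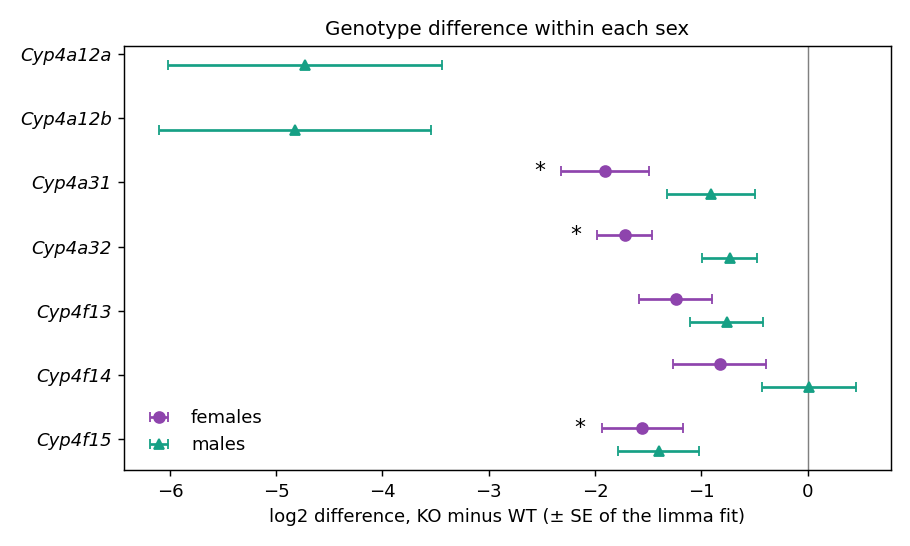
KO minus WT log2 difference (horizontal axis) of 5 genes in females (circles) and of 7 genes, with Cyp4a12a and Cyp4a12b, in males (triangles), with bars of ± 1 SE from the limma fit (n = 3 each per sex). Asterisks mark adjusted p under 0.05, carried by Cyp4a31, Cyp4a32 and Cyp4f15 in females and by no gene in males.

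Cyp4a12a and Cyp4a12b correlated at r = 0.998 over the 12 arrays and at r = 0.98 after the group means were removed. Since the copies are near identical, cross-hybridisation and shared change cannot be told apart. The named genes of closest pattern to Cyp4a12a over the 12 arrays were Nat8f5 (r = 0.96), Slco1a1 (r = 0.95), a male-biased organic anion transporter, and Ttc39c (r = 0.94). For Cyp4f15 they were Lrrc3 (r = 0.98), Tbccd1 (r = 0.97) and Mccc2 (r = 0.96), a subunit of the leucine-degrading carboxylase. All the arrays share the group structure, so these are descriptions with no test.

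Genes of the surrounding pathways were counted list by list. Some genes stand on more than 1 list, such as Creb3l3 on both PPAR alpha lists, so the counts of different lists are not independent. Over 30745 genes with 1 feature each, 8.24% were called lower and 5.81% higher in KO over both sexes, and 24.1% of those above 8 were called lower. Of 3 electron donors to P450 enzymes, Cyb5b (-1.31, limma adjusted p = 0.000781) and Cyb5r3 (-1.23, adjusted p = 0.00235) fell, and Cyb5a lay within 0.02 of its highest value on 8 arrays. Of 10 dehydrogenases after the hydroxylation 5 fell and none rose, among them Aldh9a1 (-1.75, adjusted p = 0.000413), Adh4 (-2.19, adjusted p = 0.00505) and Aldh3a2, the fatty aldehyde dehydrogenase (-3.80, adjusted p = 0.0142). Aldh2, also called (-0.45, limma adjusted p = 0.00106), lay within 0.02 of its highest value on 8 arrays, so its size is uncertain. Within the negative control range on every array lay 2 of the 10. Of 14 peroxisomal genes 8 fell and none rose, among them the auxiliary beta-oxidation enzymes Decr2 (-2.38, adjusted p = 0.00163) and Ech1 (-1.998, adjusted p = 0.0008).

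Of 13 genes for PPAR alpha and its partners 3 fell, a share near that of the genes above 8, Ppara itself (-1.62 ± 0.35, limma adjusted p = 0.0173), Creb3l3 (-0.72, adjusted p = 0.000794) and Nr1i2, the pregnane X receptor (-1.41, adjusted p = 0.00158). For Nr1i2, 2 of the 3 KO females lay within the negative control range. Of 35 PPAR alpha targets outside the Cyp4 family 19 fell and none rose over both sexes, with a median of -0.77. Among them were Cpt2 (-1.59, adjusted p = 0.00167), Slc25a20 (-1.70, adjusted p = 0.00295) and Hadha (-1.35, adjusted p = 0.00232) of mitochondrial fatty acid oxidation. In females 11 of the 35 fell and 1 rose, where 18.9% of the genes above 8 were called lower. In males 2 of the 35 fell, against 3.27% of the genes above 8. Ppara had 8.62, 8.25 and 8.59 in KO females and 10.86, 8.64 and 10.82 in KO males, against 10.40, 10.36 and 10.71 in WT females and 10.92, 11.48 and 11.65 in WT males. All KO females lay low, with KO male 19 the low KO male.

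Of 22 male-biased liver genes outside the family 9 fell over both sexes and none rose, with a median of -1.06. Keg1 (-1.69, limma adjusted p = 0.00228), Ugt2b38 (-1.55, adjusted p = 0.00231), the steroid enzyme Hsd3b2 (-1.83, adjusted p = 0.00267) and the glucuronosyltransferase Ugt2b1 (-2.39, adjusted p = 0.013) had the smallest unadjusted p. All 3 KO females lay within the negative control range for Keg1 and Hsd3b2. In females 4 of the 22 fell and 1 rose, against 5.68% of all genes called lower and 3.62% higher. In males 2 of the 22 fell, against 0.943% of all genes, Hsd3b2 (-1.91, limma adjusted p = 0.0458) and the fatty acid elongase Elovl3 (-4.81, adjusted p = 0.045). For both genes 2 of the 3 KO males lay within the negative control range, so these sizes are set in part by background. Of 22 female-biased genes 4 fell over both sexes, a share below the 24.1% of the genes above 8, among them Cyp2c69 (-1.59, adjusted p = 0.00177). Within the sexes 6 of the 22 fell in females and 0 in males. In females 5.68% of all genes and 18.9% of those above 8 were called lower. The difference of Cyp2c69 was -3.10 in females (limma adjusted p = 0.000983), while that in males was -0.09 (adjusted p = 0.953). The direct test of a sex difference in the genotype effect called 0 of these 22 genes, so such a difference is not shown. Of 15 growth hormone signalling genes 5 fell, among them Stat5b (-0.57, adjusted p = 0.000939) and the receptor Ghr (-1.02, adjusted p = 0.00364). In females 5 fell and 1 rose, against 5.68% of all genes called lower and 3.62% higher, and in males 0 were called. The difference of Stat5b was -1.06 in females (adjusted p = 0.000772), while that in males was -0.09 (adjusted p = 0.771). All 3 KO females lay within the negative control range for Stat5b, so its sizes in females and over both sexes are set in part by background. The direct test of a sex difference in the genotype effect called 0 of these 15 genes.

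Of 15 genes of leukotriene and hydroxy-arachidonic acid metabolism 3 rose and 4 fell, and 10 of the 15 lay within the negative control range on every array, called ones among them. Alox5ap, which presents arachidonic acid to the leukotriene-making lipoxygenase, rose by 2.71 ± 0.44 (limma adjusted p = 0.00471) alongside the macrophage and neutrophil markers given above, and Ephx2, the soluble epoxide hydrolase, fell by 2.37 (adjusted p = 0.00202). Of 5 vitamin K and E partners Vkorc1, the vitamin K recycling enzyme (-1.34, adjusted p = 0.000532), Vkorc1l1 (-0.64, adjusted p = 0.0139) and Nqo1 (adjusted p = 0.00827), within the negative control range on all 6 KO arrays, fell. Of 12 other Cyp4 genes 10 lay within the negative control range on every array, and 3 were called lower. Of those, Cyp4a29 and Cyp4a30b are among the 10, and Cyp4b1 lay within that range on all 6 KO arrays, so no difference is given for them. With the poly-A covariate 0 genes of these lists were called lower over both sexes.

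**Figure D4:**
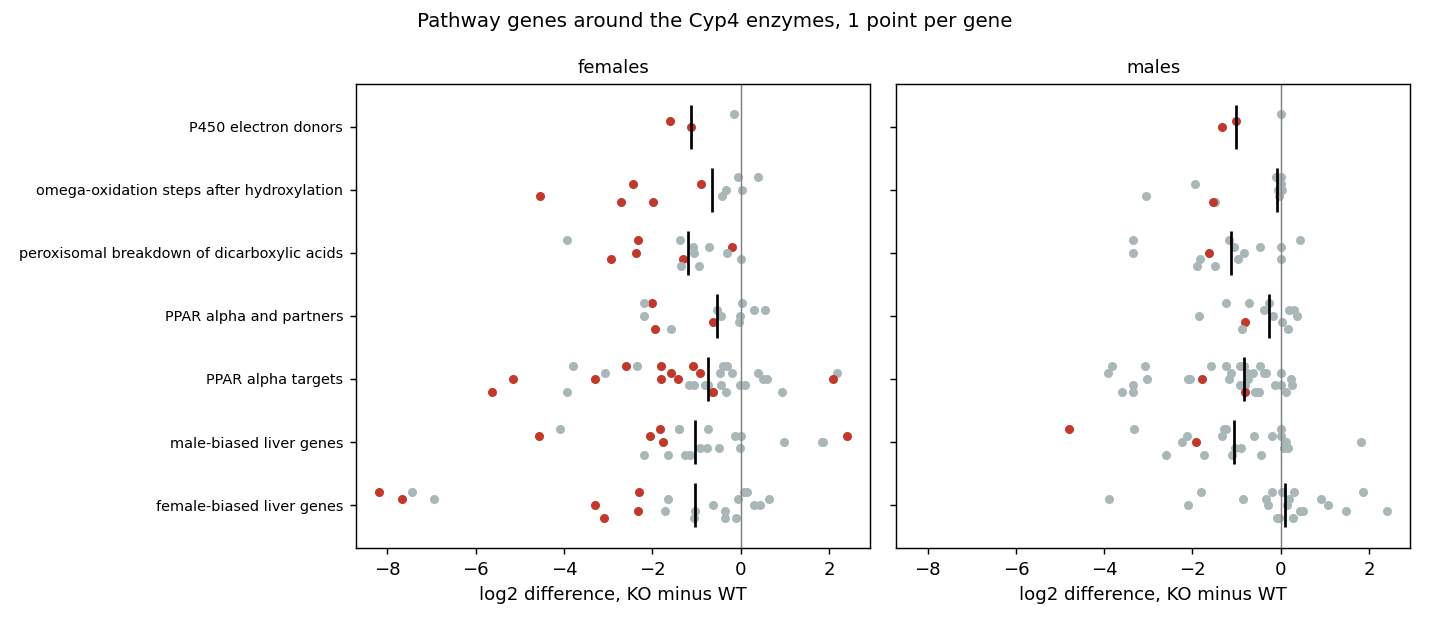
KO minus WT log2 difference (horizontal axis) of each measured gene of 7 lists in females (left) and males (right). Red points had a limma adjusted p under 0.05, grey points did not, and black lines are list medians, -0.74 in females and -0.83 in males for the PPAR alpha targets.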

How the data were processed

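The deposited log2 signals were used as they stand. The submitters' processing notes name Transcriptome Analysis Console, and the sources used here give no normalization, summarisation or build. Control features were left out of the tests, leaving 65956 transcript features on 12 arrays. Of these 31216 had 1 gene symbol, 1534 several and 33206 none, after 817 symbols were updated through the RefSeq gene table.

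Means of the 4 groups were fitted with limma 3.58.1 in R 4.3.3 (lmFit, eBayes, 8 residual degrees of freedom), tested on simulated data first. P-values were adjusted by Benjamini-Hochberg over all features, threshold 0.05. No low-signal filter was applied. The number of arrays limits the precision.

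The genes described, 11 pathway lists (166 of 183 entries matched) and 12 marker lists were chosen with earlier results of these data known. Named from a list were up to 4 genes of smallest unadjusted p over both sexes, and any of a list of 5 or fewer; Elovl3, Cpa1, Prss2, Xist and Eif2s3y were named outside that rule after their values were seen. Pattern likeness was Pearson's r over the arrays.

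Alternatives were normalization, centring, a low-signal filter, single-symbol features, the spread prior, array weights, no sex term, the poly-A covariate and left-out mice. Afterwards 2 floors on dim values and a fit without WT females 25 and 27 were added, all chosen after seeing the data. Single features per gene left no other feature to try.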

Additional observations from a re-analysis of the deposited data

How the results depend on the processing

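No paired analysis was possible because no mouse number occurs in more than 1 group. Of 973 recomputed gene values 839 kept direction and call, 76 lost the call, 29 gained it and 29 turned direction. The causes were not tested except where stated. Most of the 973 had no call to lose, since their main fit was not called, so the 76 came from a small part of them. Of 23 alternatives each, 13 lost the call for Cyp4f15 in females and 16 that for Cyp4a12a in female minus male in KO.

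With the poly-A covariate 0 genes were called over both sexes, in females and in either sex contrast, although female minus male of Cyp4a12a was then -8.18 in KO and -12.49 in WT. Without WT females 25 and 27, an alternative chosen after seeing the data, 0 genes were called in females and in either sex contrast. Without KO male 19 and WT female 38 the count was 1 in females and 0 for female minus male in KO. In males 1 gene was called after quantile normalization and 3 with the low-signal filter, which adjusts over 10483 features. The 3 were Cyp4f15, Cyp4a12a and Cyp4a12b. Cyp4a12a and Cyp4a12b pass that filter through the males alone, so their calls under it add no support. Leaving out 1 mouse gave 3 to 5 genes over both sexes, 1 to 4 in females, 0 to 2 in males, and 0 to 2 for female minus male in KO and in WT.

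The 2 floors differed. Raising each value to the mark of its own array called 6 genes in males and 0 for female minus male in KO, but also 61358 of 65956 features over both sexes, because the marks are higher in KO (6.40 to 6.83) than in WT (6.20 to 6.39) and dim features then differ by construction. A common floor of 6.83 with the low-signal filter replaced it after this was seen, and called 1 gene, Cyp4a32, for female minus male in KO.

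Directions turned as follows. With the poly-A covariate Cyp4f13 was 0.22 over both sexes and 0.50 in males, and Cyp4f14 was 1.06 over both sexes, 0.60 in females and 0.47 for female minus male in WT. Cyp4f14 in males was -0.0154 after quantile normalization, -0.0329 after centring, -0.10 with array weights, -0.55 without both mice and -0.55 to 0.30 without 1 mouse. The interaction of Cyp4f15 was 0.0143 after quantile normalization, 0.0016 with array weights, 0.35 without both mice and -0.52 to 0.16 without 1 mouse, and without both mice that of Cyp4f13 was 0.11 and of Cyp4f14 0.0717. Female minus male in WT of Cyp4a31 was -0.52 after quantile normalization, -0.29 without both mice and -0.29 to 0.19 without 1 mouse. Without WT females 25 and 27 that of Cyp4f14 was 0.28 and of Cyp4f15 0.0116. With each array's own mark as floor, KO minus WT in females was 0.46 for Cyp4a12a and 0.31 for Cyp4a12b, which the marks of near-background features set.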
